A study of Mus musculus with 24 samples.

Results

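The comparison set 3 arrays of testis against 12 arrays of somatic tissue, 3 each of brain, heart, kidney and liver, among the 24 arrays of the series. It took in all 60804 transcript probes, which are 60-base oligonucleotides for long noncoding RNAs (lncRNAs) and mRNAs, and counted transcripts lower in testis than in every somatic tissue in the same way as raised ones. All 15 arrays carried total RNA of 8-week-old male ICR mice, an outbred strain, and the 3 arrays of a tissue were biological replicates according to the methods. The labels do not tie a testis to a brain or liver of the same animal. The other 9 arrays, of 3 cultured cell lines, were left out.

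The adult testis is the site of spermatogenesis, in which spermatogonia divide by mitosis, spermatocytes pass through meiosis and haploid spermatids reshape into sperm, among somatic Sertoli and Leydig cells. Male germ cells are known to transcribe a large part of the genome, including many lncRNAs and pseudogenes. They are also known to replace some enzymes that every other tissue uses with isozymes of their own, such as Pgk2 for Pgk1 and Gapdhs for Gapdh in glycolysis, and to silence the X chromosome during meiosis. In a whole organ, fewer cells of a type and less RNA per cell cannot be told apart.

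Levels below are normalized log2 signals. The zero of the scale is the brightness that 75% of an array's probes do not exceed, so levels were compared between arrays for the same probe and never between probes. A probe was called raised or lowered where limma gave a fold of at least 5 and a Benjamini-Hochberg adjusted p of at most 0.05, and raised or lowered against all 4 tissues where it passed in each. The 75th percentile itself lay at intensities of 305 to 384 on the testis arrays and of 30.7 to 154 on the somatic ones, and the median of testis minus tissue over all probes was -1.06 (brain), -1.55 (heart), -1.47 (kidney) and -1.96 (liver) on the log2 scale. Counts in either direction therefore shift with the scaling, as given below. Liver replicate 1 and testis replicate 2 were each scanned apart from the other arrays.

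Names were available for 3456 probes, 3196 of lncRNAs and 260 of mRNAs, through transcript lists that accompany the study. Many of these lists were chosen by the study on the same arrays for being specific to a tissue, and the 260 mRNAs were all chosen as testis-specific. Lists of lncRNAs present in brain or in F9 cells, held here only in part, gave 1817 lncRNA probes together with their sequences, called the brain and F9 lncRNAs here. The lists name presence in brain or F9 cells and not testis as their ground, but how the held part was picked is not known. Of the 1817, 1687 were well above background on all 12 somatic arrays. On all 3 testis arrays 1785 were so and on none 19, beside 33639 and 21941 of all 60804 probes. Transcripts silent in testis are thus almost absent from the list. Both its raised and its lowered shares are therefore bounded by the choice of the list.

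The probes below are of lncRNAs lowered in testis, and some of them share stretches of sequence. The first 5 belong to a family of 27 probes for transcripts of 27 symbols, and the capitals mark a stretch of 15 bases that 12 of the 27 share.
Gm17068: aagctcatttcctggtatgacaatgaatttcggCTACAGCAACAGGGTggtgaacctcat
Gm13466: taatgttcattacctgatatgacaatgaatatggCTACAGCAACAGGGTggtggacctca
Gm12969: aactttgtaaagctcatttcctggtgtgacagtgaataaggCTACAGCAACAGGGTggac
Gm5327: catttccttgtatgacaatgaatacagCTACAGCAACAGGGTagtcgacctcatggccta
Gm7129: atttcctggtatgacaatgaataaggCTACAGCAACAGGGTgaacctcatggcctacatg
The next pair are probes of Gm14450 and Gm14630, at separate loci of the X chromosome, with the 25 bases they share in capitals.
Gm14450: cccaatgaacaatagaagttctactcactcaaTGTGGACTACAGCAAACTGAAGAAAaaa
Gm14630: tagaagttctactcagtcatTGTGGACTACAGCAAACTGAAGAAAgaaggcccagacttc
A smaller family of 6 probes shared a stretch of 24 bases in 5 of its members, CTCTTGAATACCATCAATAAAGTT. The probe of ENSMUST00000135949, a transcript of the Pgk1 locus, and that of AK139402, on the mitochondrial chromosome, are given without marks.
Pgk1: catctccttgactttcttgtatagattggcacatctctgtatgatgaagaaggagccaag
AK139402: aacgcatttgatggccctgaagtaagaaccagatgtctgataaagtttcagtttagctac
The stretch CTACAGCAACAGGGT was searched on the printed strand of all 1817 probe sequences and was found in 12 (0.66%), all of them members of the family and all lowered. The stretch of the 6-member family was in 5 probes (0.275%), and that of the Gm14450 pair in 2 (0.11%).

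Against all 4 somatic tissues together, 4480 probes were raised in testis (7.37% of the probes) and 2088 were lowered (3.43%). On all 3 testis arrays the level was above all 12 somatic arrays for 4462 of the raised probes, and below all 12 for 2074 of the lowered ones. Against brain, 12.3% of the probes were raised and 15.1% lowered. The shares were 11.5% and 18.2% against heart, 11.5% and 16.3% against kidney, and 10.3% and 44.7% against liver. Liver, the dimmest tissue, gave 27189 lowered probes, and only 6124 of them were well above background on all 3 liver arrays. The lowest intensity well above background was 25.3 on liver replicate 1, beside 12.6 and 13.3 on replicates 2 and 3. What raised the liver count was not tested.

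Many lowered probes were dim on 1 side of the comparison. Of the 2088 lowered probes, 1100 were well above background on all 12 somatic arrays, 959 on 1 to 11 of them and 29 on none. Those 1100 were 7.51% of the 14645 probes well above background on every somatic array. On the testis side, 803 of the lowered probes had no array well above background. Among the 14538 probes well above background on all 15 arrays, where every level was measured, 307 were raised (2.11%) and 1016 were lowered. Which of these 2 counts was larger depended on the scaling, as given below.

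Both counts moved with the scaling. The split of 4480 raised to 2088 lowered probes became 5326 to 1042 with quantile normalization, 6565 to 363 with the percentile taken over the probes well above background on all 15 arrays, and 2766 to 320 with normexp background correction. Raised probes made up 68.2% of these calls, and 83.6%, 94.8% and 89.6% in the other scalings. Among the probes well above background on all 15 arrays, the split of 307 raised to 1016 lowered changed as well. It became 461 to 837 with quantile normalization, 694 to 230 with the other percentile and 403 to 306 with normexp. Relative to the first scaling, testis minus tissue shifted by a median of 0.18 (brain) to 0.77 (liver) with normexp, 0.70 to 1.33 with the other percentile and 0.26 to 1.20 with quantile normalization. Under all 4 scalings 208 probes were lowered, all of them well above background on every somatic array, and 2647 were raised.

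**Figure D1:**
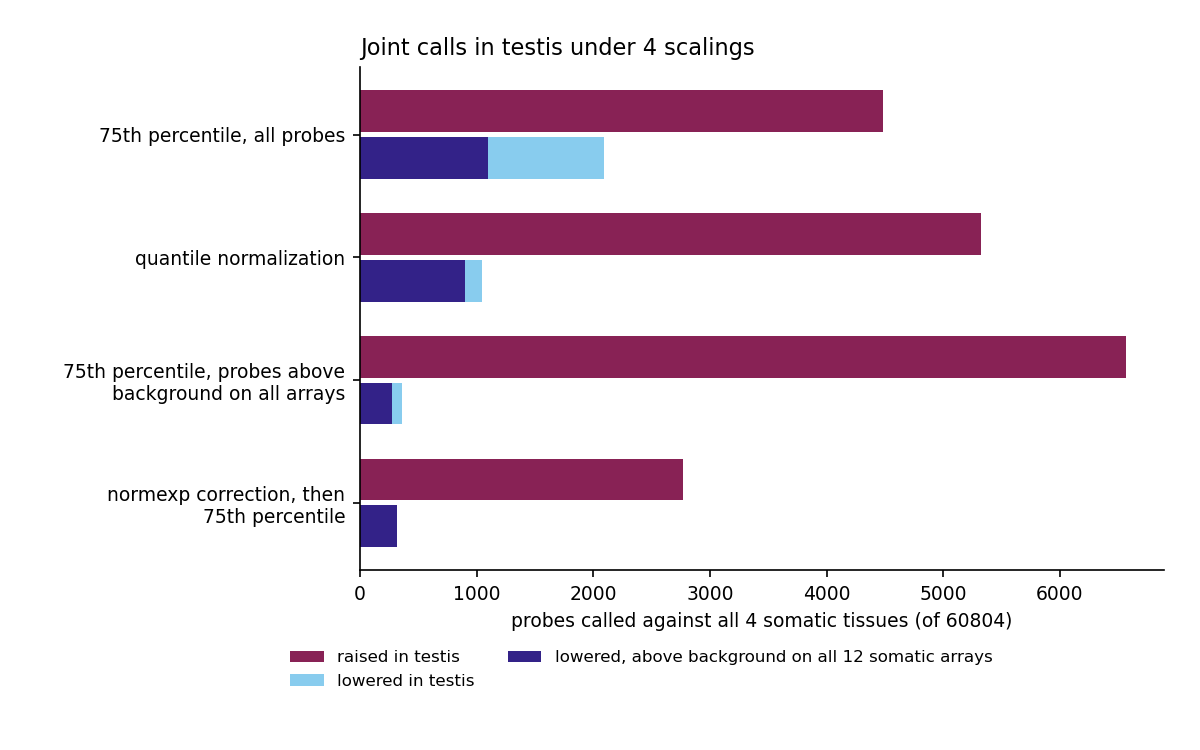
Horizontal bars give the number of probes called against all 4 somatic tissues under 4 scalings, raised ones in purple and lowered ones in blue, with the dark part of a blue bar for lowered probes well above background on all 12 somatic arrays. Raised probes outnumbered lowered ones under each scaling, and the lowered number ranged from 320 to 2088.

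LncRNAs with signal in every somatic tissue and low levels in testis were found on autosomes, on the X chromosome and on the mitochondrial chromosome. Of the identified lncRNA probes 194 were lowered against all 4 tissues and 46 of them under all 4 scalings. The 12 with the largest difference from the nearest tissue, 1 probe per symbol, are described below. They were chosen among probes well above background on all somatic arrays, with the testis arrays below every somatic array. All 12 were well above background on all 15 arrays and lowered under all 4 scalings.

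XLOC_025889, an intergenic transcript at chr9:62414366-62415642 (minus strand, GRCm38), had the largest such difference. Its levels in testis were -2.62, -2.76 and -2.72, against 4.32, 2.94 and 3.78 in brain and 5.10, 4.48 and 5.84 in heart. Kidney arrays read 3.65, 3.42 and 3.42 and liver arrays 3.08, 5.68 and 4.31. The testis arrays lay close together and far below the lowest somatic array. The transcript was 73.2-fold lower than in kidney, the nearest tissue, and 229-fold lower than in heart (log2 SE 0.53, limma adjusted p at most 7.25e-08).

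AK020603, intergenic at chr12:100079333-100079763 (minus strand), held 0.33, 0.44 and 0.28 in testis and 5.09 to 7.58 (median 5.78) over the 12 somatic arrays, highest in heart. It was 31-fold lower than in brain and 128-fold lower than in heart (limma adjusted p at most 8.40e-11). B930095G15Rik, within an intron of Farp1 on the same strand, was highest in brain, with 4.66, 4.92 and 5.13 there. In testis it read -3.75, -3.73 and -3.71, and the nearest tissue was liver with 0.22, 0.95 and 2.01. The fold below brain was 397 and that below liver 27.6, the liver arrays being the most spread of the 4 tissues.

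Gm14450 and Gm14630, the X-linked transcripts whose probes share 25 bases, followed each other array by array. Gm14450 (chrX:5984772-5985011) read 1.31, 1.22 and 1.22 in testis, 6.15, 6.26 and 5.91 in brain, 7.73, 7.97 and 8.54 in heart, 8.03, 7.92 and 7.98 in kidney and 6.99, 8.29 and 7.49 in liver. Brain was the lowest somatic tissue and still 29.1-fold above testis, while heart was 114-fold above it (limma adjusted p at most 1.77e-09). Gm14630 (chrX:57631709-57631954) read 2.59, 2.27 and 2.27 in testis and 6.87 to 9.45 (median 8.84) over the somatic arrays, again lowest in brain, and was 27.6- to 105-fold lower in testis. Whether both probes read 1 transcript was not tested, and the pair is not counted as independent loci.

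Pgk1 encodes phosphoglycerate kinase 1, the X-linked glycolytic enzyme of somatic cells. Its locus is represented by the transcript ENSMUST00000135949 (chrX:106187163-106203661), which the lists class as exonic sense, meaning that it overlaps exons of the gene on the same strand. Its levels were -0.81, -1.15 and -1.19 in testis, 3.75, 3.51 and 3.54 in brain, 4.36, 3.91 and 4.28 in heart, 4.52, 4.75 and 4.56 in kidney and 3.76, 3.59 and 2.91 in liver. All somatic arrays exceeded the testis arrays by a wide margin, 22.2-fold for the mean of liver and 50.6-fold for that of kidney (log2 SE 0.25, limma adjusted p at most 6.83e-10). Whether the probe also reads the Pgk1 mRNA was not tested.

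Hba-ps4, a pseudogene of the alpha globin that red blood cells carry, and BC028777, which overlaps exons of Ntn3 on the opposite strand, shared an uneven kidney. Hba-ps4 read 10.00, 9.92 and 11.31 in kidney, 10.00, 10.39 and 10.26 in brain, 11.02, 11.98 and 11.67 in heart and 11.76, 11.61 and 10.94 in liver, against 6.22, 5.82 and 5.71 in testis. For BC028777 the kidney arrays were at 8.03, 7.70 and 9.58 and the testis arrays at 3.37, 3.30 and 3.05. Kidney replicate 3 was the highest kidney array and heart replicate 1 the lowest heart array for both. Hba-ps4 was 19.7- to 49.7-fold lower in testis and BC028777 27.3- to 80.7-fold (limma adjusted p at most 8.39e-08 and 5.74e-07). The part of blood left in the tissues was not tested.

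In the other members of the 12 testis was again the lowest tissue. Gm12634 (intergenic, chr4:90368731-90369722) held 0.55, 0.38 and 0.55 in testis and 5.12 to 7.14 (median 5.76) in the somatic tissues. 2210408F21Rik, an intergenic locus at chr6:31220405-31337385 with 5 identified probes, was lowered with all 5, and the probe of ENSMUST00000139444 read 0.37, -0.16 and -0.23 in testis against 4.04 to 6.33 (median 5.24) on the somatic arrays. It was 18.4-fold lower than in brain and 75.3-fold lower than in heart. S100a16, represented by a transcript sharing exons with the gene of a calcium-binding S100 protein, held -1.21, -1.29 and -1.06 in testis and 2.73 to 4.15 (median 3.29) in the somatic tissues, with liver the nearest at 17.9-fold. In arrays of slide 1, which held replicate 1 of every tissue, the 12 transcripts were lower in testis in 48 of 48 comparisons, with differences of -8.41 to -3.78 on the log2 scale. On slide 2, with replicates 2 and 3 of each tissue but heart, they were lower in 36 of 36, with differences of -8.74 to -4.14. These directions followed from the choice of the 12, which required every testis array to lie below every somatic array.

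**Figure D2:**
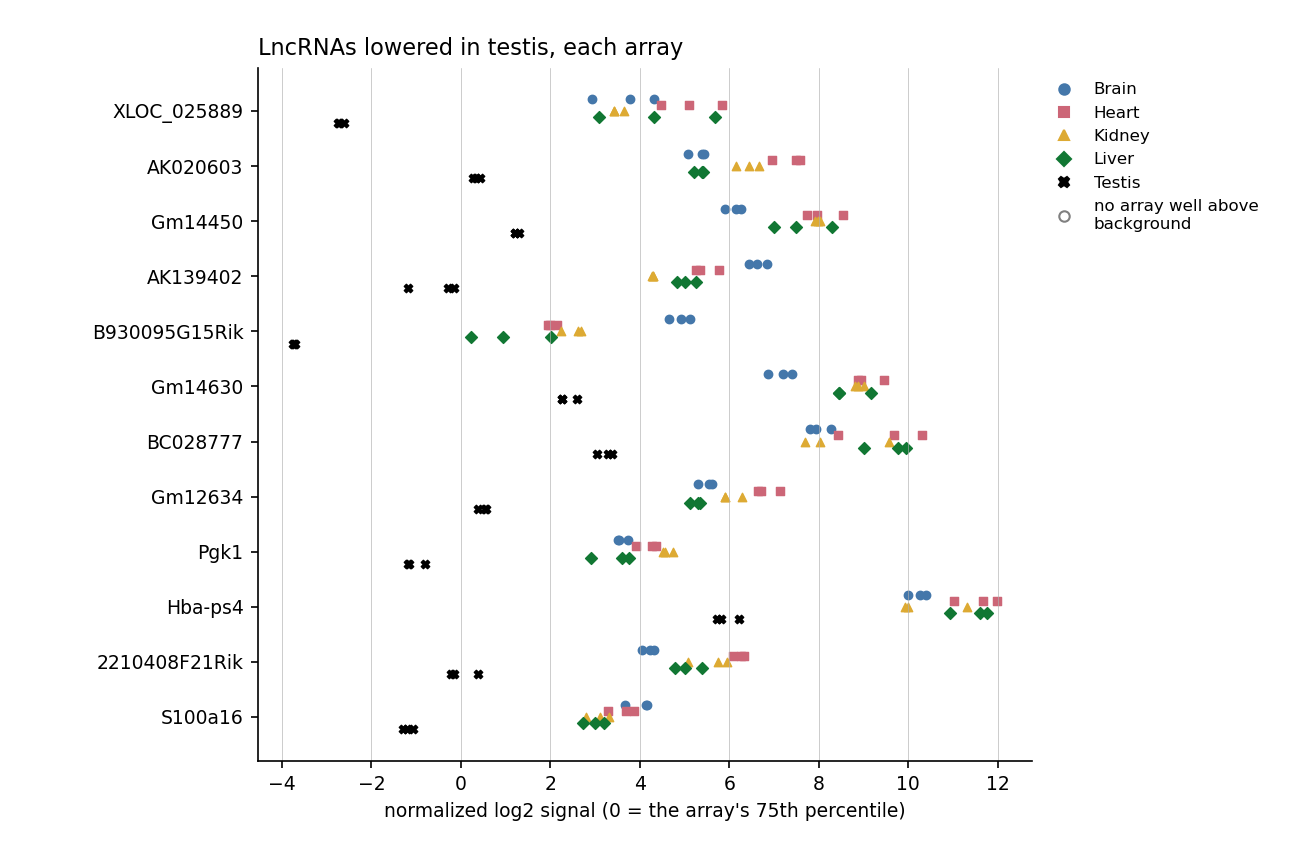
Each point is the normalized log2 signal of 1 array (x axis, 0 being the array's 75th percentile) for the 12 named lowered lncRNAs, by tissue. All 3 testis arrays lie to the left of all 12 somatic arrays in each row, as the choice of rows required. Testis means run from -3.73 for B930095G15Rik to 5.92 for Hba-ps4.

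Transcripts of the mitochondrial chromosome all had a testis mean below that of each somatic tissue in the first scaling. The same held for 65.7% of all probes well above background on every array. Of the 6 mitochondrial probes, 5 lay below all 4 tissues with normexp and 4 with the percentile over commonly detected probes. With quantile normalization 3 lay below all 4 and 1 above all 4. Of 6 probes on the mitochondrial chromosome, all well above background on every array, 3 were lowered against all 4 tissues. Among all probes well above background on every somatic array, 7.51% were lowered. AK139402 (chrM:15763-16188, minus strand) read -1.19, -0.16 and -0.28 in testis, 6.44, 6.85 and 6.62 in brain, 5.26, 5.76 and 5.35 in heart, 4.28, 4.30 and 4.29 in kidney and 4.83, 5.01 and 5.25 in liver. It was 145-fold lower than in brain and 28.5-fold lower than in kidney (limma adjusted p at most 7.29e-10). AK140265 was at 6.98 ± 0.10 (SD, n = 3) in testis and 10.02 ± 0.17 in brain, and Atpase6, named for a subunit of the mitochondrial ATP synthase, at 5.50 ± 0.13 against 8.28 ± 0.29. Cox2, named for a subunit of cytochrome c oxidase, differed by -1.25 (brain) to -2.84 (liver) and was not called. The remaining probes, of GU332589 and DQ539915, differed from brain by -0.18 and -0.79, a direction that turned for GU332589 under the other 3 scalings and for DQ539915 under quantile normalization. The number lowered was 3 with normexp, 1 with the percentile over commonly detected probes, where AK140265 and Atpase6 lost the call, and 2 with quantile normalization, where AK140265 lost it, and the part of mitochondrial content was not tested.

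Searching the 1817 probe sequences for near-identical probes (the central 40 bases of a probe found in another with at most 6 edits) gave 115 families of 2 or more probes, 18 of them with 5 or more. In 16 of the 18 no member was called in either direction. In the other 2 every member was lowered against all 4 tissues, 27 of 27 and 6 of 6, and these 33 probes were 20.2% of the 163 lowered ones among the brain and F9 lncRNAs. Each family is closely related sequence read many times, and its members are not independent.

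The 27-probe family spans loci on autosomes and on the X chromosome, where 7 of its members lie. Gm17068, a member on chromosome 19, read 5.75, 6.08 and 6.24 in testis, 9.40, 9.59 and 9.78 in brain, 10.96, 11.09 and 11.51 in heart, 9.88, 10.55 and 10.35 in kidney and 9.35, 9.37 and 9.45 in liver. The arrays of a tissue lay close together, heart was highest, liver and brain were lowest among the somatic tissues, and testis was below all of them. Over the 27 members the median difference was -3.81 from brain, -5.48 from heart, -4.43 from kidney and -3.47 from liver, where all 60804 probes had -1.06, -1.55, -1.47 and -1.96. The member nearest to a somatic tissue was Gm13296, 7.85-fold lower than liver, and the farthest Gm13460, 123-fold lower than heart. All 27 stayed below all 4 tissues under each scaling, and the number past the fold of 5 was 13 with normexp, 11 with the percentile over commonly detected probes and 14 with quantile normalization. Within slide 1 all 108 differences were below 0 and within slide 2 all 81. These directions were largely fixed by the calls on the same arrays, and the members are not independent readings.

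The 6-probe family holds Gm6498, AK201904, AK195420, Gm11960 and AK186650 with 2 probes. For at least 1 of these probes the lists note a possible cross-hybridization with the mRNA of Gapdh, the glycolytic enzyme glyceraldehyde-3-phosphate dehydrogenase. Gm6498 was at 8.19 ± 0.04 in testis, 10.97 ± 0.06 in brain, 11.95 ± 0.25 in heart, 11.62 ± 0.17 in kidney and 11.36 ± 0.05 in liver (SD, n = 3). The family's median differences were -2.79 from brain, -3.80 from heart, -3.43 from kidney and -3.24 from liver. All 6 stayed below all 4 tissues under each scaling, but 1, 0 and 0 passed the fold of 5 with normexp, the percentile over commonly detected probes and quantile normalization.

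The arrays also carry control spots for the Gapdh and Pgk1 mRNAs, each in 10 copies at the 3' and the 5' end, which were not part of the fit and were well above background in every copy. At the 3' end of Gapdh the testis arrays read 6.82, 6.71 and 6.75, against 10.19, 10.15 and 10.11 in brain, 11.39, 11.29 and 11.64 in heart, 10.55, 10.87 and 10.62 in kidney and 10.18, 9.79 and 9.85 in liver. The differences were -3.39, -4.68, -3.92 and -3.18 in that order of tissues, largest against heart as in both families. At the 5' end they were -3.99, -5.22, -4.60 and -3.68. For the 27-probe family the cross-hybridization notes were searched only for that Gapdh mRNA, which they did not name. Which gene its probes read was not tested.

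For Pgk1 the 3' control spots read 3.45, 3.59 and 3.60 in testis and means of 8.23 ± 0.01 in brain, 8.76 ± 0.27 in heart, 9.30 ± 0.19 in kidney and 8.61 ± 0.22 in liver (SD, n = 3). Testis differed by -4.68, -5.21, -5.75 and -5.06, so that kidney was the highest tissue here and not heart. The transcript ENSMUST00000135949 had the same top tissue, with -4.65, -5.23, -5.66 and -4.47. No test was made on control spots.

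**Figure D3:**
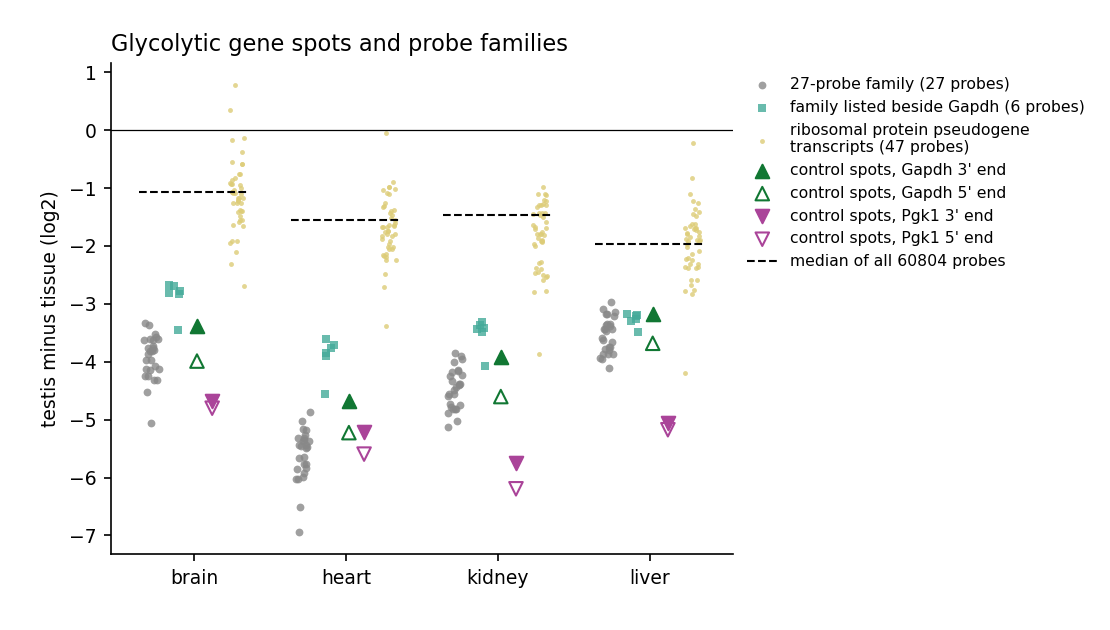
The y axis gives testis minus tissue on the log2 scale, by somatic tissue: members of the 27-probe family (grey), the 6-probe family (teal), 47 ribosomal protein pseudogene transcripts (yellow), the Gapdh (green) and Pgk1 (purple) control spots at the 3' end (filled) and 5' end (open), and the median of all probes (dashed). The families and the control spots lie below the dashed line in every tissue, and the pseudogene transcripts scatter around it.

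Most ribosomal protein pseudogene transcripts were not called in either direction. The 47 probes for them, named for the structural proteins of the ribosome, were all well above background on all 15 arrays. Their median differences of -1.17, -1.67, -1.79 and -1.89 from brain, heart, kidney and liver were near those of all probes, and 45 (95.7%) lay below all 4 tissues, beside 65.7% of all probes well above background on all 15 arrays (36, 34 and 42 under the percentile over commonly detected probes, quantile normalization and normexp). Of the 47, 1 was lowered (2.13%), the X-linked Rpl10-ps4, at 6.61 ± 0.36 in testis and 9.30 ± 0.37 in brain (SD, n = 3). The number lowered was 1 with normexp and 0 with the other percentile or quantile normalization. Rplp0-ps1 and Rpl29-ps1 were the only members of the list above a somatic tissue in this scaling, at 0.77 and 0.35 from brain, and neither was called.

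Among the 1817 brain and F9 lncRNAs 163 were lowered against all 4 tissues (8.97%) and 11 raised (0.605%). Of the 183 on the X chromosome 23 were lowered (12.6%) and 2 raised, and of the 1628 on other chromosomes 137 were lowered (8.42%) and 9 raised. Without the 2 families the shares lowered were 9.09% of 176 on the X chromosome and 6.93% of 1602 elsewhere. Under normexp, the percentile over commonly detected probes and quantile normalization, 11, 6 and 17 of the X-linked probes were lowered and 60, 39 and 96 of the others. The median difference of X-linked lncRNAs was -1.12 from brain and -1.82 from liver, beside -1.35 and -1.81 for the rest. By position relative to genes, 100 of 962 intergenic, 28 of 433 exonic sense, 15 of 192 intronic antisense, 14 of 96 intronic sense, 4 of 87 exonic antisense and 2 of 47 bidirectional lncRNAs were lowered. Differences between these shares were not tested.

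On the raised side, the testis markers 1700027A15Rik, an intergenic lncRNA at chr1:73024586-73025508, and Kcnmb4os1, a lncRNA named as antisense to a potassium channel subunit gene, were not well above background on any of the 12 somatic arrays. Where a probe was that dim, the fold is a lower bound against the lowest signal well above background. Against brain 1700027A15Rik was at least 3720-fold and Kcnmb4os1 at least 2050-fold higher in testis, and against liver, where the bound is weakest, at least 812- and 448-fold.

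1700009N14Rik, listed among the mRNAs, was raised as well. Its testis arrays read 9.19, 9.18 and 9.30 and no somatic array was well above background, so that it was at least 6690-fold above brain and at least 1460-fold above liver. Oxct2b, a testis form of the enzyme that activates ketone bodies, read 8.91, 9.20 and 9.24 in testis. It was well above background on 1 brain and 1 heart array, where heart read -5.36, -0.63 and -3.26. Against kidney the bound was at least 3630-fold. Actl7a encodes an actin-like protein of the sperm head. It read 8.33, 8.28 and 8.36 in testis and -3.74 to -1.72 (median -2.63) over the somatic arrays. Of these, 2 brain, 1 heart, 2 kidney and 0 liver arrays were well above background, so that no fold is given except the bound against liver, at least 783-fold (limma adjusted p at most 1.87e-11). Qrich2 (8.45 ± 0.13), a protein of the sperm flagellum, and Iqcf5 (7.88 ± 0.11) were raised likewise, as were the lncRNAs AK017048 (7.49 ± 0.04), 4933432K03Rik (7.33 ± 0.10) and 4930544D05Rik (7.22 ± 0.08, SD, n = 3). These transcripts were near background outside testis. The 10 named ones were chosen with all testis arrays above all somatic arrays. Their direction within slide 1 (40 of 40 differences) and slide 2 (30 of 30) therefore followed from the choice.

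Only 4 identified symbols were raised against all 4 tissues while well above background on all 15 arrays, so that their folds are measured on both sides. All 4 were raised under all 4 scalings. AK013192, which shares exons with Csnk1g2, the gene of a casein kinase 1 isoform, read 8.52, 8.66 and 8.82 in testis. The somatic tissues lay together, with 3.96, 4.83 and 4.37 in brain, 4.13, 3.50 and 4.43 in heart, 4.14, 4.60 and 4.33 in kidney and 3.81, 4.04 and 3.96 in liver. Testis was 19.4- to 26.5-fold higher (limma adjusted p at most 3.40e-09).

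Pttg1 encodes securin, which blocks the separation of sister chromatids until anaphase. A transcript sharing exons of Pttg1 (ENSMUST00000152115, chr11:43420278-43425981) read 5.45, 5.37 and 5.49 in testis. Somatic arrays ranged from 2.13 to 3.07 (median 2.48), and the fold was 6.78 over heart and 8.9 over liver. Gm14857 is intergenic on the X chromosome (chrX:106281912-106285096, minus strand). It read 7.37, 7.27 and 7.43 in testis and 4.67, 4.90 and 5.01 in heart, its nearest tissue, and 2.31, 2.86 and 2.86 in kidney. The folds were 5.65 over heart and 25.6 over kidney (limma adjusted p at most 2.29e-07). Gm19898, antisense within an intron of Foxn3, read 3.90, 4.14 and 4.28 in testis and 0.15, 2.33 and 1.05 in liver, whose arrays were widely spread, and was 7.62-fold above liver and 26.8-fold above kidney.

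**Figure D4:**
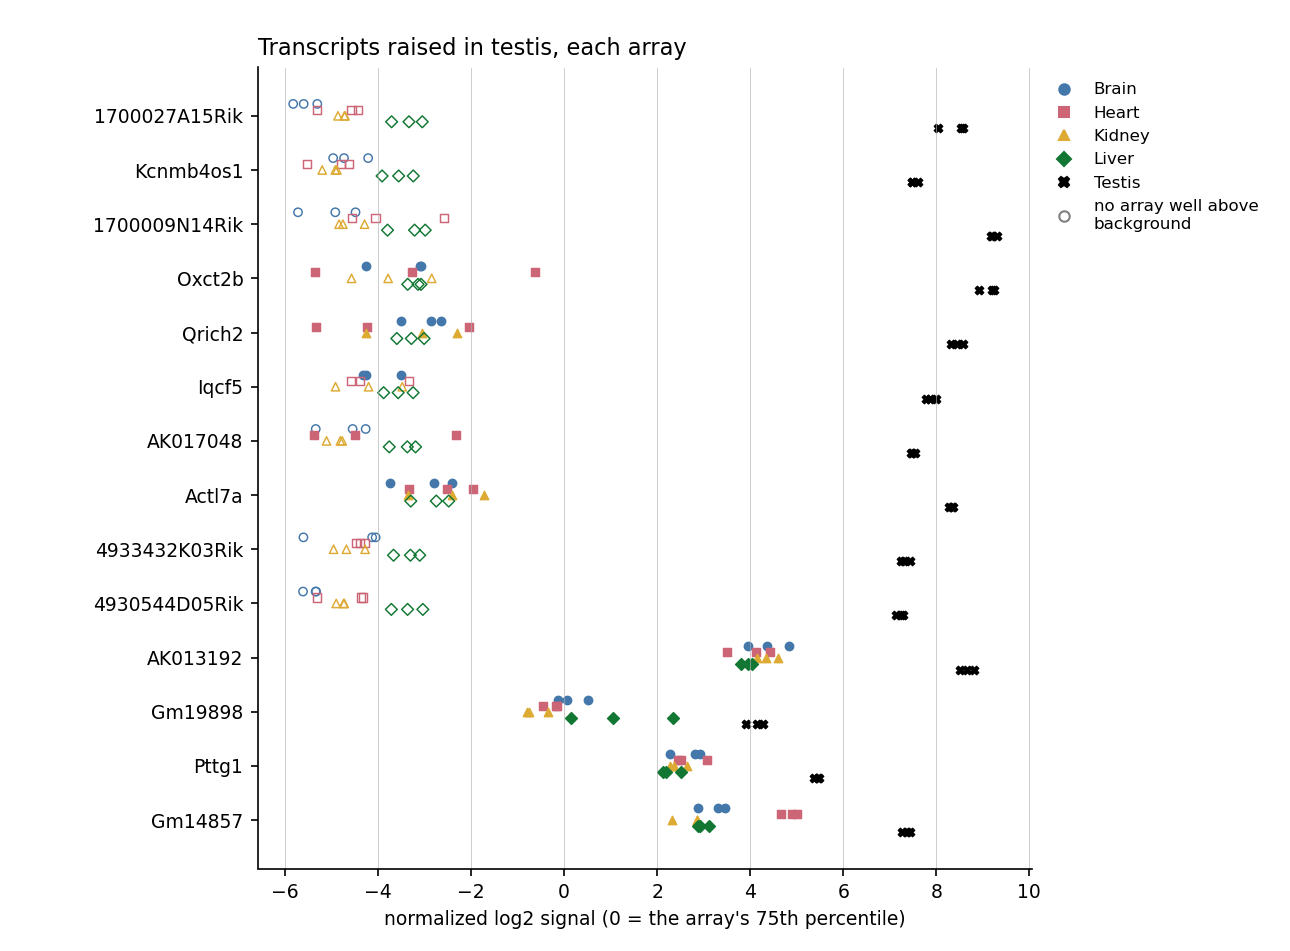
Each point is the normalized log2 signal of 1 array (x axis) for 14 raised transcripts, with open symbols where no array of that tissue was well above background. The upper 10 rows are near background in the somatic tissues, and the lower 4 (AK013192, Gm19898, Pttg1 and Gm14857) are well above background in all 5 tissues.

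The mRNAs of germ cell development could be described only as the study's own choice of testis-specific mRNAs, so their direction is not independent evidence. Of all 260 identified mRNA probes, from which the next 3 groups were taken, 176 were raised (67.7%) and all were above the mean of each tissue. Of 38 mRNAs of cell division 29 were raised against all 4 tissues (8, 37 and 34 under normexp, the percentile over commonly detected probes and quantile normalization), a share of 76.3%. Skp2, a subunit of a ubiquitin ligase of the cell cycle, was at 3.35 ± 0.11 in testis, and Top2a, the topoisomerase that untangles chromosomes, at 2.71 ± 0.30 against -1.34 ± 1.17 in heart (SD, n = 3). Among the others, Ckap2 differed from liver by 1.36 and did not pass, though it did without liver replicate 1 (2.42). The group's median difference was 4.77 from brain and 3.60 from liver, beside 4.72 and 3.41 for the 260 mRNA probes.

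Of 19 probes for 18 mRNAs of meiosis and germline RNA pathways 13 were raised (68.4%; 5, 18 and 15 probes under the same alternatives), about the share of all 260. Gtsf1, a partner of PIWI proteins, was at 6.75 ± 0.26 in testis and -3.48 ± 1.08 in brain, where 1 array was well above background, and Rnf17, a germ cell granule protein, was at 3.80 ± 0.17 in testis. Piwil2, a PIWI protein that binds piRNAs, was at 1.89 ± 0.41 (SD, n = 3). Stra8, which spermatogonia switch on before meiosis, was lost with normexp. Morc1 differed from liver by 0.93 and was not called, and of the Tex14 probes 1 passed and 1 did not, except without liver replicate 1 (2.33) or 2 (2.41). Of 16 mRNAs of spermatids and sperm 15 were raised (93.8%), 15 also under normexp and quantile normalization and 16 under the other percentile, with a median difference of 8.78 from brain. They include Acr, the acrosomal protease, at 2.76 ± 0.11, Dnah8, a dynein of the flagellum, at 5.74 ± 0.29, and Sept12, a septin of the sperm tail, at 5.47 ± 0.06. Spata6, of the sperm neck, differed by 1.97 from heart and did not pass. Star, the cholesterol carrier of Leydig cells, was raised as well.

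LncRNAs that overlap sperm and germ cell genes, most of them from the study's testis-specific list, gave 21 raised of 25 and 0 lowered, beside 416 raised and 194 lowered of all 3196 identified lncRNA probes (15, 22 and 22 raised under the alternatives). Transcripts from loci of Adam proteins of the sperm surface were among them, with Adam5 at 6.80 ± 0.04 in testis, Adam18 at 5.58 ± 0.11 and Adam3 at 4.35 ± 0.06. Cylc2, named for a protein of the sperm head cytoskeleton, was at 6.44 ± 0.40 (SD, n = 3). The lncRNAs of Spatc1, a locus named for sperm, and of Iqcf3 were well above background on all 15 arrays, at 6.01 ± 0.15 against 7.95 ± 0.19 in brain and at 5.86 ± 0.30 against 7.69 ± 0.22. Neither passed the fold of 5 in every comparison. Slc26a8 missed it against liver, except without testis replicate 1 (2.34), and Fam187b was well above background in kidney only.

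Host lncRNAs of small nucleolar RNAs, whose introns hold the guide RNAs of ribosomal RNA modification, mostly had lower testis means without passing the call. Of 15 probes 13 (86.7%) were below all 4 tissues, beside 63.4% of all probes and 67.1% of the identified lncRNA probes. Their median differences were -2.44 (brain), -1.81 (heart), -2.16 (kidney) and -3.04 (liver), and 1 was lowered (6.67%), near the 6.07% of identified lncRNA probes. That probe, ENSMUST00000160152 of Gas5, read 3.26, 3.12 and 3.05 in testis and 5.28 to 7.33 (median 6.31) in the somatic tissues, and it was not lowered under the other 3 scalings. Another Gas5 probe, ENSMUST00000159706, was raised at 1.37 ± 0.03, as was Snhg3 (ENSMUST00000155816) at 1.45 ± 0.23 (SD, n = 3), neither well above background on any somatic array and neither raised with normexp. Probes of the Gas5 locus were thus called in opposite directions in this scaling.

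No imprinted lncRNA passed against all 4 tissues. Of 18 probes 14 (77.8%) were below all 4 tissues, beside 67.1% of the identified lncRNA probes, and 2, both of Nespos, above all 4, and under the other scalings 6 to 10 were below. H19 was well above background everywhere, at 8.32 ± 0.59 in testis, 9.15 ± 0.61 in brain and 11.34 ± 0.81 in liver. Meg3 was read by 7 probes, which disagreed. ENSMUST00000150851 differed by -0.44 (kidney) to -1.47 (heart), and NR_003633 by -6.08 from brain and 2.18 from kidney. Peg13 was at 1.90 ± 0.02 in testis, 7.56 ± 0.19 in brain and 2.58 ± 0.04 in liver.

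Of the lncRNAs retained in nuclei, Malat1 was read by 3 probes and Neat1, the scaffold of paraspeckles, by 1, and the 4 were below the mean of each tissue. The Malat1 probe of ENSMUST00000173523 read 5.08, 6.23 and 5.24 in testis, 8.52, 8.56 and 8.89 in brain and 7.25, 6.83 and 7.31 in liver. It was 8.81-fold lower than in brain and 3.07-fold lower than in liver, and none of the 4 passed the joint call. For the Malat1 probe of ENSMUST00000173499 the direction against liver turned with the percentile over commonly detected probes. The testis arrays had an SD of 0.52 to 0.97 over the 3 Malat1 probes and of 1.19 for Neat1, which was called against all 4 tissues without testis replicate 2 (-2.45 against brain). Tug1, at 4.10 ± 0.07 (SD, n = 3), lay between the tissues.

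**Figure D5:**
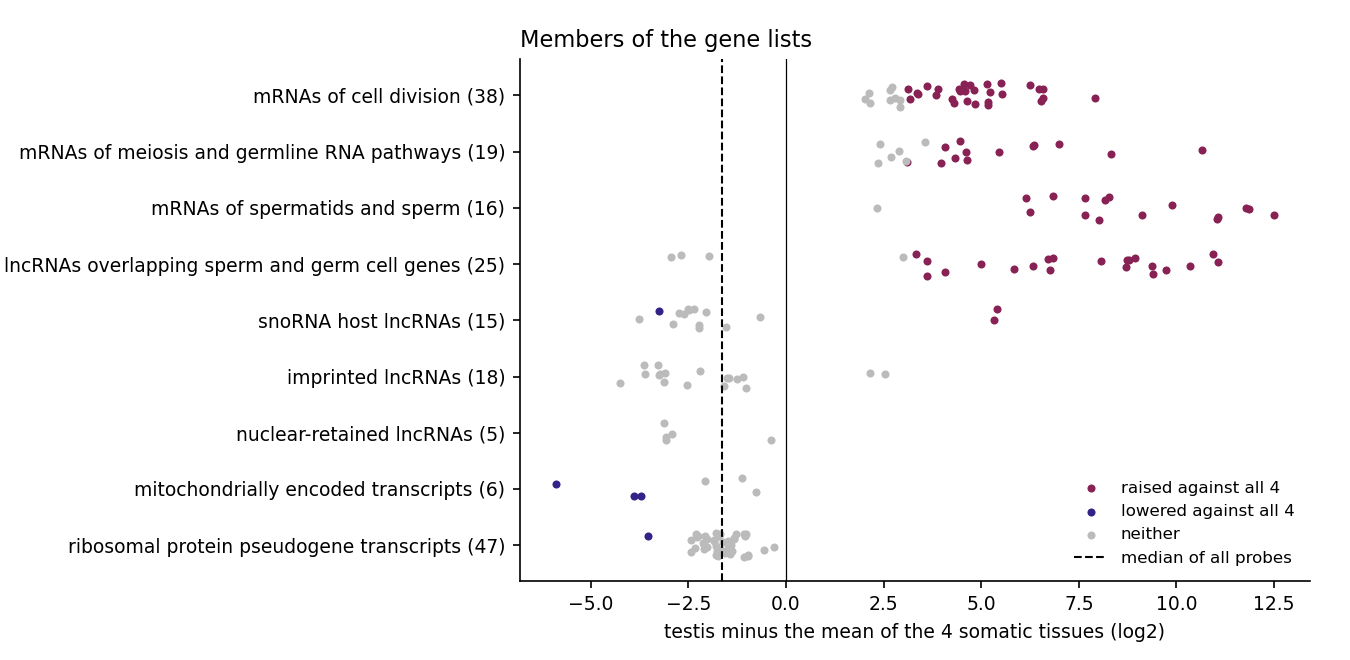
Each point is 1 probe of a gene list (rows, number of probes in parentheses), placed by testis minus the mean of the 4 somatic tissues on the log2 scale and coloured by the call against all 4. The 3 mRNA lists lie to the right, at 2.025 or more, and the ribosomal protein pseudogene transcripts around the dashed median of all probes, -1.63.

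Transcripts that mark the somatic tissues were also read in testis. Of 11 brain marker transcripts 7 had no testis array well above background and Gria1 had all 3, at -2.46 ± 0.33 against 5.38 ± 0.30 in brain (SD, n = 3). None of the 5 heart, 7 kidney and 10 liver markers but the liver marker Kng1 was well above background on all 3 testis arrays. Kng1 was so in every tissue. The marker transcripts could be named only through the study's lists, some of which were chosen on these arrays for absence from the other tissues. Their low signal in testis is therefore no independent check of the labels.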

How the data were processed

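The 15 tissue arrays were Agilent 1-colour (Cy3) lncRNA microarrays, and total RNA was labelled and hybridised by the authors. Spot intensities were deposited as the scanner software (Feature Extraction 11.5.1.1) gave them, background-subtracted and detrended, with flags for spots well above background, and the normalized values of the study were not used here. A deposited table of intensities of the same arrays matched these processed signals within a relative difference of 0.000228. For this report, log2 intensity minus each array's 75th percentile was computed over 60804 probes and fitted with limma 3.58.1 (R 4.3.3), with 1 coefficient per tissue and Benjamini-Hochberg adjustment over all probes of a comparison. A probe was called where its adjusted p was 0.05 or less and its fold 5 or more. The number of arrays, 3 per tissue, limits the precision. The p-values set a difference against the spread between arrays of a tissue, pooled over the tissues and moderated over all probes.

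Probes were named through transcript lists accompanying the study, which give GRCm38 coordinates for 2082 of the 3456 identified probes, and names were not available for the others. Named genes were, with 1 probe per symbol, the markers, the 10 raised probes with the largest difference from the nearest tissue (well above background on all testis arrays, groups not overlapping), up to 8 raised ones well above background on all 15 arrays, the 12 lowered ones (well above background on all somatic arrays, groups not overlapping), and members of short lists. The members and lists, and the probe families, were chosen with earlier results of these data known, and the families were sought after seeing the lowered probes. Sequences were compared with edlib 1.3.9.post1. For bounds, a dim probe was set on each array to the higher of its own level and the lowest level well above background.

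Alternatives were normexp (offset 50) on the median spot signal, since the mean signal planned for it was not in the files, the percentile over probes well above background on all 15 arrays, quantile normalization, the deposited table, a filter on dim probes, fits of 2 tissues, replicate number or slide as a block, a fold of 2 and leaving out each array. Running them on the counts of lists and families was chosen after seeing the data. On simulated data with 60804 probes the fit recovered 92 of 100 raised and 95 of 100 lowered probes changed by 3.5 on the log2 scale, and 35 and 34 of 100 at 2.5. The simulation drew independent normal noise around a mean shared by all tissues. It held no overall shift between tissues, no background floor and no slide effect. These recoveries therefore do not bear on how the counts move with the scaling. The authors' own comparison results in the lists were not used.

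Deviations of samples of the same replicate number correlated positively in all 3 pairs of testis with each tissue. The correlations were 0.19 to 0.37 with brain, 0.10 to 0.21 with heart, 0.16 to 0.24 with liver and 0.03 to 0.40 with kidney. With brain, heart and liver, each testis array correlated most with the array of its own number. With kidney, testis replicate 2 correlated more with replicate 3 (0.17) than with replicate 2 (0.03). The correlations were taken over probes well above background on every array. The fit behind the results used no pairing, and replicate number entered only as a block among the alternatives. Whether samples of the same number came from the same animal was not tested, and the labels name no shared animal. Replicate 1 of every tissue also shared a slide.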

Additional observations from a re-analysis of the deposited data

How the results depend on the processing

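The scaling and the fold threshold moved the counts most. With normexp, raised and lowered probes numbered 3983 and 3492 against brain, 3647 and 3147 against heart, 3519 and 3391 against kidney, 3566 and 3277 against liver, 3529 and 2773 against the mean of the 4 tissues, and 2766 and 320 against all 4. With the percentile over commonly detected probes, lowered probes numbered 5944 (brain), 4513 (heart), 3716 (kidney), 5515 (liver), 3494 (mean) and 363 (all 4), and raised ones 10631 (kidney) and 10155 (liver). Quantile normalization gave 6767 (heart), 6236 (kidney), 7032 (liver), 5243 (mean) and 1042 (all 4) lowered probes. A fold of 2 gave 11379 and 30067 (brain), 10589 and 36488 (heart), 10767 and 35363 (kidney), 10077 and 37905 (mean) and 6931 and 23313 (all 4) raised and lowered probes, and 9958 raised ones against liver. Without dim probes 9917 were lowered against liver. The cause was not tested. Raised probes made up 34.25% of the calls against the mean of the 4 tissues, and 56.0%, 72.67% and 57.54% with normexp, the other percentile and quantile normalization.

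Leaving out 1 array gave 4384 to 4577 raised and 2035 to 2276 lowered probes against all 4 tissues, and the counts for each tissue stayed within 1.5 times of those reported, as they did with the deposited table, the fits of 2 tissues and the slide block (4466 and 2015 against all 4). The replicate block gave 4479 and 2087 and changed no call against all 4 tissues among the named genes and list members. For kidney, testis replicate 2 deviated with kidney replicate 3 (0.17) more than with kidney replicate 2 (0.03).

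Some differences of named genes that were not called changed sign. With the percentile over commonly detected probes these were Malat1 ENSMUST00000173499 against liver (0.05), Nrap against brain (0.27), Gm5532 against kidney (1.04), Fxyd2 against brain (0.53), Mup-ps18 against heart (0.38) and GU332589 against brain (0.52). With quantile normalization they were Nrap (0.05), Gm5532 (0.33), Fxyd2 (0.47), Mup-ps12 against brain (0.01), Mup-ps18 (0.68), Nr1i3 against kidney (0.19), GU332589 (0.03) and DQ539915 against brain (0.31), and with normexp GU332589 (0.07). Over all arrays left out in turn Nrap ranged from -0.85 to 0.29, Gm5532 from -0.53 to 0.41, Fxyd2 from -0.49 to 0.08 and GU332589 from -0.35 to 0.01. The first 3 turned without testis replicate 1, Gm5532 also without kidney replicate 3 (0.06), and GU332589 without brain replicate 1. Of the named genes called against all 4 tissues, Stra8 fell below the fold of 5 against liver with normexp (0.74) and Atpase6 against brain with the percentile over commonly detected probes (-2.09), as did AK140265 against kidney (-2.25) and, with quantile normalization, against liver (-1.99). Neat1 passed against brain without testis replicate 2 (-2.45), and Tmem72 against heart without heart replicate 1 (-2.56) or testis replicate 2 (-2.34). No other gene named by the rule changed its call against all 4 tissues under an alternative that kept the fold of 5.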
